A study of Homo sapiens with 10 samples.

Results

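The EGF family ligands and the ERBB receptors were followed across 10 culture conditions of 3 human cell lines. The set was given by name and holds 6 ligands (TGFA, HBEGF, AREG, EREG, BTC and EGF) and 3 receptors (EGFR, ERBB2 and ERBB3). Probe sets that the array annotation maps to 1 of these symbols alone were found for 8 of the 9 genes, of 19775 genes so named on the array, and AREG is not analysed here. These 8 genes have 29 probe sets, and each gene is described by its brightest probe set (mean of the 10 arrays), with the others as a check.

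EGF family ligands are made as membrane-anchored precursors that metalloproteinases cut to release the soluble growth factor. A ligand bound to EGFR makes the receptor pair with itself or with another ERBB protein, and the pair signals through ERK and through PI3K. In the colon the pathway drives growth of the epithelium and its repair, and in colorectal cancer EGFR is a drug target.

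HCT116 is a colorectal carcinoma line, and Hke3 is known as a line derived from it, so that it stands for 1 derivative. Each was profiled in 4 conditions, which were culture alone, vitamin D3 for 24 hours, coculture with THP1 macrophages, and coculture with vitamin D3. The cell types exchanged soluble factors in coculture but did not touch, and the labels give MEM with serum for the colon lines and RPMI with serum for THP1. THP1, a monocytic leukaemia line that the labels call macrophages, was profiled alone and with vitamin D3. Each condition has 1 array, made from 5 µg of total RNA, so that pairs of arrays differing in 1 factor take the place of replicates and their number limits the precision. Nothing in the labels says whether the cultures were grown at separate times.

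Values are deposited log2 intensities, and a gene was tested where at least 1 array of the comparison lay above 6.18 log2, the median of all values. CYP24A1, the vitamin D-induced enzyme that breaks the hormone down, was higher with vitamin D3 by 1.44 log2 in HCT116 alone, 1.45 in Hke3 alone and 5.88 in THP1. In coculture it was lower in the arrays labelled with vitamin D3, by 0.98 log2 in HCT116 and 1.36 in Hke3 (differences of -0.98 and -1.36). The coculture arrays are named below as labelled, and differences by vitamin D3 rest on labels that this gene goes against. Which cocultured array is paired with which other array, the SE of the coculture fits and tests within matched pairs rest on these labels too. The Hke3 array titled with vitamin D3 also has 1 label field that calls it untreated. Of 16 macrophage markers 14 were on the array, and their summed intensity was 722 to 796 on the colon arrays without coculture, 728 to 769.6 in coculture, and 57540 and 74010 in THP1. In the colon arrays 4 of these markers lay above the threshold, and 5 did in Hke3 with THP1 and vitamin D3, where SRGN, a proteoglycan of blood cells, reached 6.28 log2 against 3.94 to 4.90 in the other colon arrays. Of 10 colon epithelial markers 8 lay above it on every colon array and 4 in THP1.

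The start regions of TGFA, HBEGF and BTC are shown because TGFA and HBEGF had the larger coculture differences of the ligands, while that of BTC depended on the line. The sequences are the 250 bases before an annotated start (for TGFA the first of 2), from RefSeq (GRCh38.p14), and capitals mark the GC box letters GGGCGG or the reverse complement CCGCCC.
TGFA, chr2:70553827-70554076, minus strand: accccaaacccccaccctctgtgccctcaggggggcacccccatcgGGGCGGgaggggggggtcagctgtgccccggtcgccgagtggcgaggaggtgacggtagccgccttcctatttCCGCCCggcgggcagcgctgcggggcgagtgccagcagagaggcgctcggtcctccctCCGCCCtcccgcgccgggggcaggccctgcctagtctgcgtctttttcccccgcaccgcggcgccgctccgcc
HBEGF, chr5:140346604-140346853, minus strand: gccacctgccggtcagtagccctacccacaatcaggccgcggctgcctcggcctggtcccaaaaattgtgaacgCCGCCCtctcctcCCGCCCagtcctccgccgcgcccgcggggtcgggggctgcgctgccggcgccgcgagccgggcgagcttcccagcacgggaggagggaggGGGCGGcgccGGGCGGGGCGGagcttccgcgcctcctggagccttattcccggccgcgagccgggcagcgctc
BTC, chr4:74794524-74794773, minus strand: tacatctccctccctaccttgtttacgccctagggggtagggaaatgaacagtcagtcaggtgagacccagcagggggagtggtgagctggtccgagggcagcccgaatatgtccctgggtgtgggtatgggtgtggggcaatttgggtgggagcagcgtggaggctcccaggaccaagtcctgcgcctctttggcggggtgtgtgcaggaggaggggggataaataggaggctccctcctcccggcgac
The TGFA stretch holds 3 matches and is 75.6% G or C, while the stretch before its second annotated start (chr2:70553447-70553696) holds none and is 64% G or C. The HBEGF stretch holds 5, of which the pair nearest the start overlaps, and is 76.4% G or C. BTC has none and is 62% G or C, against a median of 58% over 35116 such stretches. A GC box match was present in 42.6% of all stretches. The AP-1 letters TGANTCA (6.57% of all stretches, searched on both strands) and the CRE letters TGACGTCA (1.65%) matched in none of these, the second TGFA start included. Nor did the TEAD letters GGAATG (11.9%) or the hypoxia response core ACGTG (18.5%), while its other form GCGTG (32.2%) matched once in BTC and once at the second TGFA start. The kB-like motif (22.6%) matched at 2 places in BTC and at 1 at the second TGFA start. These matches are descriptions of letters and were not tested against the arrays. By RefSeq order on chromosome 4, EPGN, EREG, AREG and BTC are neighbours.

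**Figure D1:**
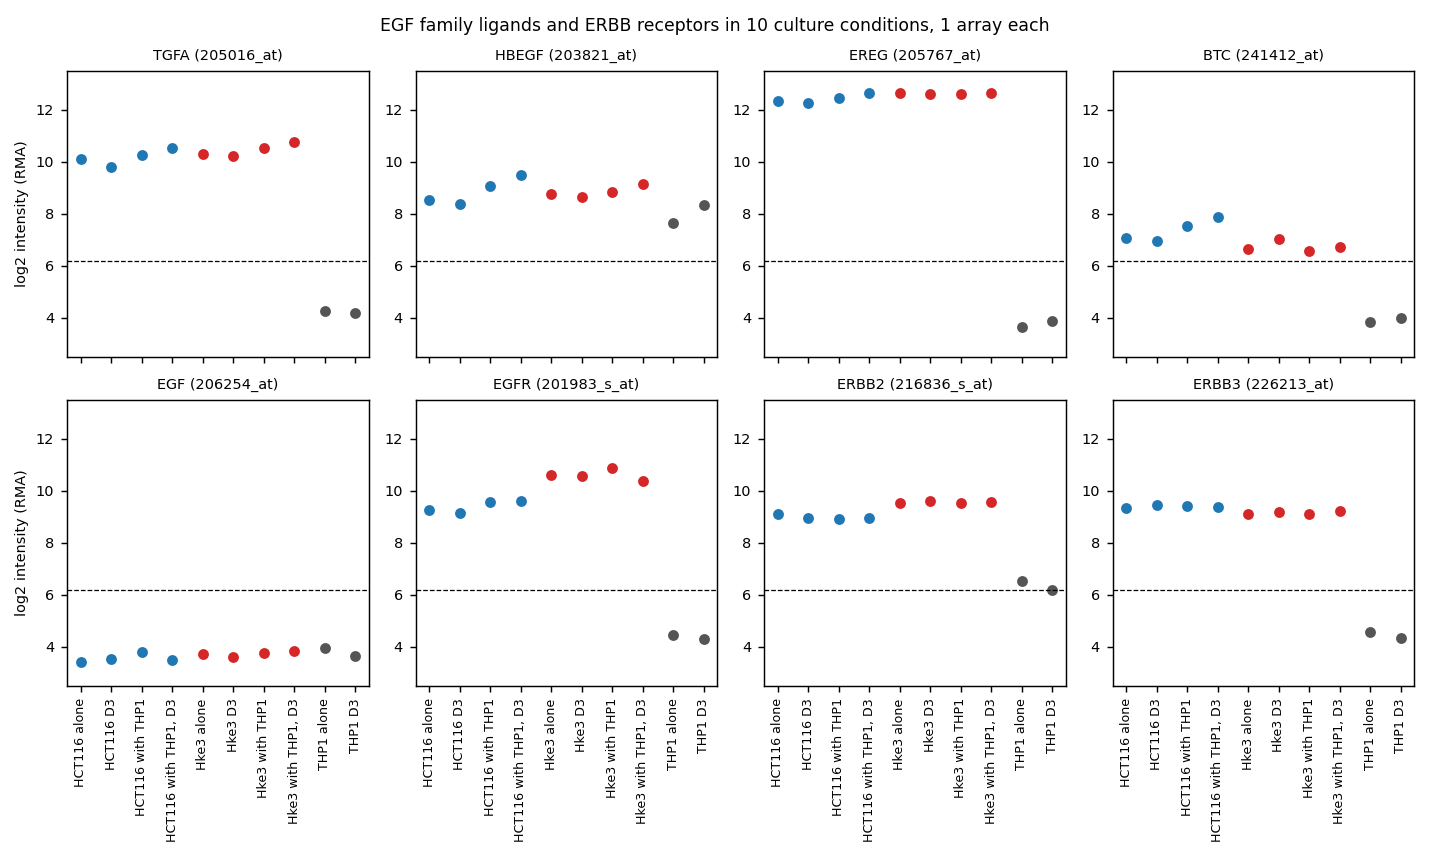
Level of each gene on the 10 arrays (y axis, log2 intensity from RMA; x axis, culture condition; 1 array per point), with the probe set named and a dashed line at 6.18 log2. TGFA, EREG, BTC, EGFR, ERBB2 and ERBB3 stand several log2 units lower in THP1 than in the colon lines, HBEGF does not, and EGF stays below the line on every array.

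The first question was which of these genes differ when the cancer cells share medium with THP1 macrophages. TGFA, which encodes the ligand TGF-alpha, was the one gene of the 7 tested that rose in coculture, where 7.82% of all 13243 genes tested passed the threshold, 3.76% higher and 4.05% lower. HBEGF, the heparin-binding ligand that is also a receptor for diphtheria toxin, was higher in all 4 pairs but missed the threshold. EREG, BTC, EGFR, ERBB2 and ERBB3 did not pass on their brightest probe sets, although other probe sets of EGFR did.

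TGFA was at 10.10 log2 in HCT116 alone, 9.79 with vitamin D3, 10.24 with THP1 and 10.52 with both. In Hke3 it was at 10.29 alone, 10.20 with vitamin D3, 10.53 with THP1 and 10.76 with both. Within each line both cocultured arrays lay above both others, while across lines Hke3 alone lay above HCT116 with THP1. The difference was 0.42 ± 0.097 log2 (SE of the fit), or 1.335-fold, with an adjusted p of 0.0401 by limma. The 4 pairs differed by 0.14 and 0.73 in HCT116 (without and with vitamin D3) and by 0.24 and 0.56 in Hke3. Of all genes tested, 12.9% were higher in all 4 pairs, and 10.1% had both cocultured arrays above both others in each line. In the order of its 8 colon levels the SD of the residuals was 0.17 log2, and the gaps that exceeded it lay above the lowest array, between Hke3 alone and HCT116 with both, and below the highest array.

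All 3 probe sets of TGFA were higher in all 4 pairs. 211258_s_at differed by 0.41 log2 (adjusted p = 0.0486, limma) and 205015_s_at by 0.50 (adjusted p = 0.0171, limma). With TGFA's brightest probe set the call was kept without HCT116 alone (adjusted p = 0.0476) and lost without any other single array, where adjusted p ran from 0.0607 to 0.114 and the difference stayed between 0.33 and 0.48 log2. It was also lost with a block of line and vitamin D3, which compares the 4 matched pairs (adjusted p = 0.0811), and with no filter on dim genes (adjusted p = 0.0516). The ACTB 3′ minus 5′ probe difference, which grows as RNA is degraded, moved with coculture: it was 0.30 and 0.25 log2 in HCT116 without THP1 and 0.16 and 0.23 with it, and 0.94 and 0.72 against 0.62 and 0.56 in Hke3. It was lower in all 4 pairs, and its part in this and the other coculture results was not tested. The same difference for GAPDH lay between -0.0995 and -0.0951 log2 on all HCT116 arrays. In Hke3 it was 0.063 and 0.042 without THP1 and -0.001 and 0.020 with it.

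HBEGF was at 8.53 log2 in HCT116 alone, 8.35 with vitamin D3, 9.07 with THP1 and 9.49 with both. In Hke3 it was at 8.77 alone, 8.65 with vitamin D3, 8.82 with THP1 and 9.13 with both. Its highest value was that of HCT116 with both, and in Hke3 the array with THP1 alone stood only 0.05 log2 above its partner. The difference was 0.55 ± 0.14 log2 (1.47-fold, higher in 4 of 4 pairs, adjusted p = 0.0535 by limma). Without the vitamin D3 labels in the model, which CYP24A1 goes against in coculture, the same difference had an adjusted p of 0.0351, and that of TGFA was 0.022. In that model 11% of all genes passed. HBEGF also passed with a filter at the 75th percentile and with cyclic loess (adjusted p = 0.0438 each). It did not pass with no filter (0.0646) or with the mean of its probe sets (0.21 log2, 0.0849). In 8 omissions of a single array it passed in 0 (adjusted p from 0.0503 to 0.129). Of HBEGF's other probe sets above the threshold, 38037_at differed by 0.38 log2 (3 of 4 pairs, adjusted p = 0.103) and 244857_at, which lay between 6.44 and 6.64 log2 on every colon array, by -0.01.

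EREG, which encodes epiregulin, was at 12.33, 12.25, 12.44 and 12.63 log2 in HCT116 (alone, vitamin D3, THP1, both) and between 12.61 and 12.65 on all 4 Hke3 arrays. Its coculture difference was 0.13 ± 0.074 log2, with 0.12 and 0.38 in the HCT116 pairs and -0.03 and 0.04 in the Hke3 pairs (adjusted p = 0.317). EGF, which encodes the founding ligand, was at 3.41 to 3.81 log2 on the colon arrays and was not tested. Of the receptors, ERBB2, which binds no known ligand of its own, differed by -0.05 ± 0.06 log2 and ERBB3, the neuregulin receptor with an impaired kinase, by 0.01 ± 0.05.

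EGFR differed by 0.21 ± 0.11 log2 on its brightest probe set 201983_s_at (adjusted p = 0.261, higher in 3 of 4 pairs). That probe set was at 10.87 log2 in Hke3 with THP1 and at 10.36 in Hke3 with both, its lowest Hke3 value. Without the last array its difference was 0.34 log2 (adjusted p = 0.0433). That was the 1 call in 8 omissions of a single array. Over these its difference ran from 0.12 to 0.34 log2, and adjusted p reached 0.556. Of the 6 EGFR probe sets above the threshold, 4 were higher in all 4 pairs, and 3 of the other 5 passed. By brightest probe sets, 12.9% of all genes were higher in all 4 pairs and 7.82% passed. The share of all 24732 probe sets tested that passed is not given here, so the count has no background of its own kind. 201984_s_at differed by 0.57 log2 (adjusted p = 0.0254), 211607_x_at by 0.36 (adjusted p = 0.0451) and 224999_at by 0.33 (adjusted p = 0.0427), while 1565483_at differed by -0.03. The median difference of the 7 genes was 0.21 log2, against -0.02 over all genes tested. It is the value of EGFR's brightest probe set, and 1 of the 7 genes passed.

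**Figure D2:**
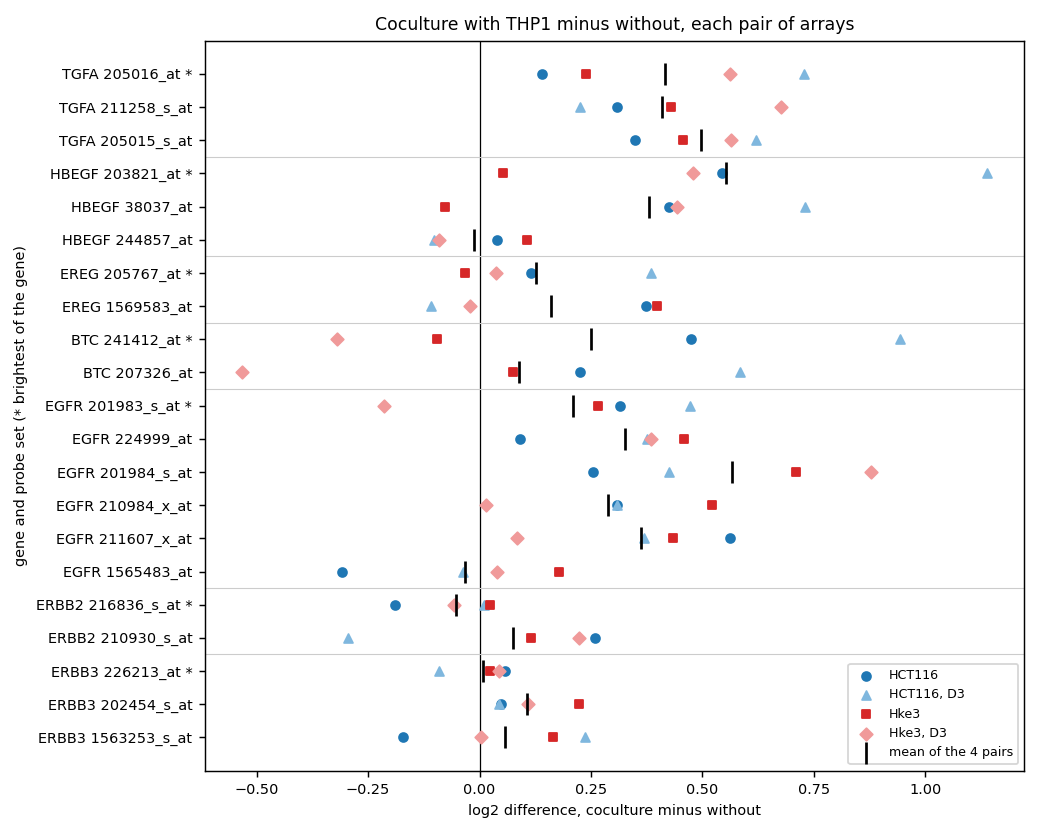
Coculture minus no coculture (x axis, log2 difference) for each probe set above the threshold (y axis, starred where it is the brightest of its gene), with 1 marker for each of the 4 pairs of arrays and a bar at their mean. The TGFA pairs all lie above 0, and the BTC pairs of HCT116 lie above 0 while those of Hke3 on the starred probe set lie below it.

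Whether the response to coculture differed between the lines was tested by an interaction. BTC, which encodes betacellulin, was the 1 gene of 7 that passed, against 4.21% of all genes. It was at 7.05 log2 in HCT116 alone, 6.94 with vitamin D3, 7.53 with THP1 and 7.88 with both. In Hke3 it was at 6.65 alone, 7.03 with vitamin D3, 6.56 with THP1 and 6.71 with both. In HCT116 both cocultured arrays lay above both others, and in Hke3 the 2 sets of arrays overlapped.

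The BTC pairs differed by 0.47 and 0.94 log2 in HCT116, a mean of 0.71, and by -0.10 and -0.32 in Hke3, a mean of -0.21. The interaction was -0.92 ± 0.17 log2 (limma, adjusted p = 0.0301), and 7.42% of all genes tested were likewise higher in both HCT116 pairs and lower in both Hke3 pairs. The second probe set, 207326_at, had pairs of 0.23, 0.58, 0.08 and -0.53 log2 and an interaction of -0.63 (adjusted p = 0.133). The call held without HCT116 alone (adjusted p = 0.0319) and was lost without any other single array (adjusted p from 0.0648 to 0.118), with the interaction between -0.71 and -1.12 log2 over all 8 omissions. With no filter on dim genes the adjusted p was 0.0512.

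HBEGF had mean pair differences of 0.84 log2 in HCT116 and 0.27 in Hke3, and its interaction of -0.58 ± 0.21 did not pass (adjusted p = 0.161). With all two-way interactions in the model its adjusted p was 0.0257, where 6.2% of all genes passed. With the 1 interaction alone it passed in 0 of 8 omissions of a single array (adjusted p from 0.129 to 0.405). The interaction of TGFA was -0.03 ± 0.20 log2, with mean differences of 0.43 in HCT116 and 0.40 in Hke3. The EGFR interaction was -0.37 ± 0.18 log2 on its brightest probe set and 0.45 ± 0.12 on 201984_s_at (adjusted p of 0.277 and 0.0819), so its sign depended on the probe set.

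The lines themselves were compared over the same 8 arrays. EGFR was higher in Hke3 by 1.21 ± 0.11 log2 (2.31-fold, adjusted p = 0.000127, limma), and ERBB2 was higher by 0.59 ± 0.06 (adjusted p = 0.000219), both in 4 of 4 pairs, as 30.8% of all genes were. ERBB3 was lower in Hke3 by 0.23 log2 (a difference of -0.23 ± 0.05, adjusted p = 0.00925). In all, 6 of the 7 genes passed on their brightest probe sets, 4 higher and 2 lower in Hke3, where 40.5% of all genes passed, 24.8% higher and 15.7% lower. For 5 of the 6 another probe set of the same gene gave the opposite sign or lost the call, so most of these directions hold for a probe set rather than for the gene.

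EGFR was at 9.26, 9.14, 9.57 and 9.61 log2 in HCT116 (alone, vitamin D3, THP1, both) and at 10.60, 10.58, 10.87 and 10.36 in Hke3. The 2 groups of 4 did not overlap, as was so for 34.6% of all genes in 1 direction or the other, and the gap between the highest HCT116 and the lowest Hke3 array was larger than the residual SD of 0.20. 224999_at gave 0.97 log2 in the same direction (adjusted p = 4.84e-05), but 201984_s_at gave 0.09, 210984_x_at -0.19 and 211607_x_at -0.21, of which none passed.

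ERBB2 was at 9.09, 8.95, 8.90 and 8.96 log2 in HCT116 and at 9.52, 9.62, 9.54 and 9.56 in Hke3, with no overlap. Its second probe set, 210930_s_at, a dim one with a highest value of 6.43 log2, differed by -0.58 (adjusted p = 0.00254). ERBB3 was at 9.34, 9.46, 9.40 and 9.37 log2 in HCT116 and at 9.10, 9.18, 9.12 and 9.22 in Hke3, again with no overlap. 1563253_s_at gave -0.55 for ERBB3 (adjusted p = 0.00148) and 202454_s_at gave 0.09 (adjusted p = 0.243).

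Among the ligands, TGFA was higher in Hke3 by 0.28 log2 on its brightest probe set (adjusted p = 0.0462), but 205015_s_at was lower, with a difference of -0.70 (adjusted p = 0.000114), and 211258_s_at differed by -0.24 (adjusted p = 0.0808). EREG was higher by 0.21 log2 (adjusted p = 0.0479), while 1569583_at gave -0.46 (adjusted p = 0.00638). With no filter on dim genes both calls were lost (adjusted p of 0.057 and 0.0661), and that of EREG also with the block of matched pairs (adjusted p = 0.0525). BTC was lower on both probe sets, with differences of -0.61 ± 0.18 log2 (adjusted p = 0.0271) and -0.54 (adjusted p = 0.0205). In the pair of arrays without THP1 and with vitamin D3 BTC was 0.10 log2 higher in Hke3, and the widest gap was -1.17 in the pair with both. HBEGF differed by -0.02 ± 0.14 log2, with pairs of 0.25 and 0.30 without coculture and -0.25 and -0.36 with it.

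The probe measures of RNA quality moved with the line as well, that of ACTB more than that of GAPDH. The ACTB 3′ minus 5′ difference was 0.24 ± 0.05 log2 in HCT116 and 0.71 ± 0.17 in Hke3 (SD, n = 4 each), and its part in the line differences was not tested. For GAPDH it was -0.097 ± 0.002 in HCT116 and 0.031 ± 0.028 in Hke3 (SD). When single arrays were left out, EGFR, ERBB2 and ERBB3 kept their calls in all 8 omissions, TGFA and BTC in 3 each and EREG in 1.

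**Figure D3:**
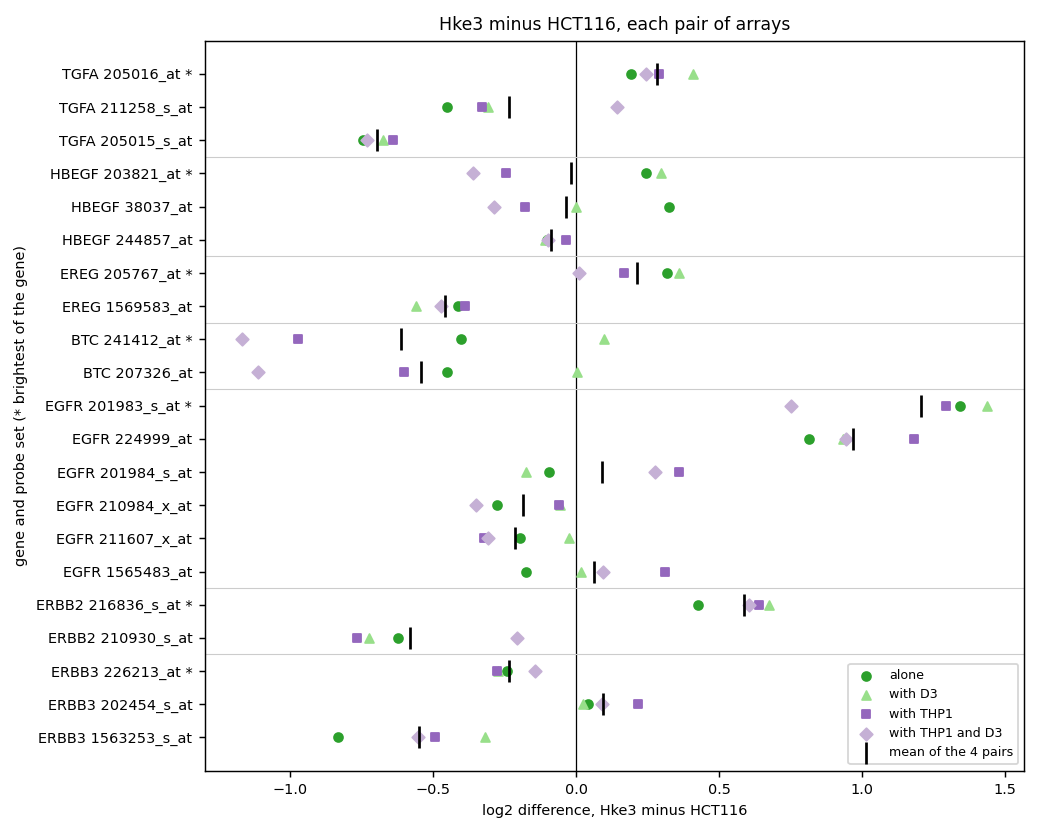
Hke3 minus HCT116 (x axis, log2 difference) for each probe set above the threshold (y axis, starred where it is the brightest of its gene), with 1 marker per pair of arrays and a bar at the mean. Of the EGFR probe sets 2 lie near 1 and the others near 0, and TGFA, EREG and ERBB2 have probe sets on both sides of 0.

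Vitamin D3 was compared over the 4 colon pairs with the labels as given. None of the 7 genes passed, and limma called 0 of the 13243 genes tested (0%), with 375 (2.83%) at an unadjusted p under 0.05. The differences ran from -0.15 ± 0.11 log2 for EGFR to 0.20 ± 0.18 for BTC, but these values and their signs rest on the coculture labels that CYP24A1 goes against. With those labels turned, as a description only, the range was -0.26 for HBEGF to 0.08 for EGFR, with TGFA at -0.23 and BTC at -0.06, and again none passed. With the labels as given, TGFA was lower with vitamin D3 in the pairs without coculture (differences of -0.31 and -0.09) and higher in the cocultured pairs (0.28 and 0.23). HBEGF had the same signs, with -0.17 and -0.12 and then 0.42 and 0.31. The interaction of coculture and vitamin D3 was 0.46 ± 0.12 log2 for TGFA (adjusted p = 0.991, unadjusted 0.006) and 0.51 ± 0.24 for HBEGF (adjusted p = 0.995), where limma called 0 genes and 652 (4.92%) had an unadjusted p under 0.05. That of vitamin D3 and the line called 0 genes, with 144 (1.09%) at an unadjusted p under 0.05.

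In THP1 without coculture, TGFA, EREG, BTC, EGFR and ERBB3 lay below the threshold on both arrays. They were compared with the colon lines grown without coculture only because they are high there, so a lower THP1 level was fixed by the filter and is given as a value with no test. TGFA was at 4.25 log2 in THP1 alone and 4.18 with vitamin D3, a difference of -5.88 ± 0.085 from the mean of the colon lines. EREG was at 3.62 and 3.87 (-8.71 ± 0.097), BTC at 3.85 and 3.98 (-3.01 ± 0.12), EGFR at 4.43 and 4.29 (-5.54 ± 0.072) and ERBB3 at 4.57 and 4.34 (-4.81 ± 0.10). These sizes are approximate, since the THP1 levels are near background, and EGF stood at 3.95 and 3.63.

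ERBB2 and HBEGF were above the threshold in THP1 too and were tested, where 66.3% of 13778 genes passed and 39.1% were lower. ERBB2 was at 6.52 log2 alone and 6.19 with vitamin D3, just above it, a difference of -2.94 ± 0.11 (adjusted p = 1.4e-05, limma).

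Not every probe set put TGFA near background in THP1. 211258_s_at was at 7.33 log2 alone and 6.76 with vitamin D3, above the threshold, while 205015_s_at was at 5.63 and 5.67.

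HBEGF was the ligand with a THP1 level well above the threshold on its brightest probe set, at 7.64 log2 alone and 8.32 with vitamin D3, against 8.35 to 8.77 in the colon lines without coculture. Its difference from them was -0.59 ± 0.19 log2 (adjusted p = 0.042, limma). Over the mean of its probe sets it was -0.34 (adjusted p = 0.0764), and without THP1 alone it was -0.18 (adjusted p = 0.0969). Leaving out HCT116 alone or Hke3 alone also lost the call (adjusted p of 0.113 and 0.11). Against HCT116 by itself the difference of HBEGF was -0.46 (adjusted p = 0.134, where 61.9% of all genes passed), and against Hke3 -0.73 (adjusted p = 0.0357, where 64.2% passed).

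With vitamin D3, HBEGF in THP1 was 0.67 log2 higher (1.595-fold), and 38037_at was 0.71 higher. There is 1 array on each side and no test, and 4.36% of 12717 genes were more than 1.5-fold higher in that comparison. The other 7 genes differed by -0.33 (ERBB2) to 0.25 (EREG) log2 on their brightest probe sets, and 211258_s_at of TGFA by -0.57. CD14, a monocyte surface receptor, was at 8.29 log2 alone and 13.77 with vitamin D3.

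Other genes of the pathway were counted from 5 lists. The lists were chosen with earlier results of these data known, so their counts and medians are descriptions. Of the other EGF family ligands and ERBB4, 5 of 6 were on the array and 2 were tested, and neither passed in coculture or between the lines. NRG1, which encodes a ligand of ERBB3 and ERBB4, lay between 6.99 and 7.18 log2 on the colon arrays, and ERBB4 between 4.71 and 4.83. Of 11 genes of ligand shedding none passed in coculture. ADAM17, the main protease that releases TGF-alpha, differed by 0.29 ± 0.085 log2 (adjusted p = 0.0743).

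Of 12 genes that restrain or turn over the receptors, 2 rose in coculture, where 3.76% of all genes did. ERRFI1, an inhibitor of the EGFR kinase that the receptor's own signalling induces, rose by 0.36 ± 0.061 log2 (adjusted p = 0.0188). It was at 13.33, 13.33, 13.55 and 13.78 log2 in HCT116 and 13.41, 13.39, 13.71 and 13.85 in Hke3, so both cocultured arrays lay above both others in each line. CBLB, a ubiquitin ligase that targets the receptor, rose by 0.35 ± 0.087 log2 (adjusted p = 0.0492). None of 11 adaptors and effectors passed. As for TGFA, the ACTB measure of RNA quality moved in the same 4 pairs.

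Of 19 genes read as ERK output, 2 rose in coculture and none fell, beside 3.76% and 4.05% of all genes. DUSP5, a nuclear phosphatase of ERK, rose by 0.41 ± 0.081 log2 (adjusted p = 0.0259) and IER3, an immediate early gene, by 0.38 ± 0.085 (adjusted p = 0.0367). The list's median was 0.18 log2 against -0.02 over all genes, a description of a list chosen with earlier results known. The ACTB difference moved with these too. In the interaction of coculture and line, which 4.21% of all genes passed, DUSP6, a cytoplasmic phosphatase of ERK, had mean differences of 0.70 log2 in HCT116 and -0.06 in Hke3 (interaction -0.76 ± 0.12, adjusted p = 0.0172). SPRY1, a feedback inhibitor of receptor signalling, went the other way with -0.29 and 1.24 (interaction 1.53 ± 0.22, adjusted p = 0.0143). SOCS4, of the restraint list, had an interaction of -0.47 (adjusted p = 0.0478).

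Between the lines, 13 of the 19 ERK output genes were higher in Hke3 and 2 lower, beside 24.8% and 15.7% of all genes. Their median was 0.49 log2 against 0.01 over all genes. Since the list was chosen with earlier results of these data known, these shares and the median only describe it. DUSP4 was higher by 1.14 log2, the cyclin gene CCND1 by 1.11, the cytokine gene LIF by 1.05 and FOSL1, a component of AP-1, by 0.89. EPHA4 (-0.47) and PHLDA1 (-0.24) were lower. List genes were compared on their brightest probe set alone, and the ACTB measure of RNA quality also moved with the line. The other lists had shares near those of all genes, with 3 higher and 2 lower of 12 restraint genes, 3 higher of 11 shedding genes, and 3 higher and 2 lower of 11 adaptors. On the restraint list PTPN1, a phosphatase of receptor tyrosine kinases, was higher by 0.94, CBLC by 0.69 and CBL by 0.30, while LRIG1 (-0.69) and LRIG3 (-0.35) were lower. Of the shedding genes RHBDF2 was higher by 0.36 log2 and ADAM9 and NRDC by 0.26 each. Of the adaptors PLCG1, GRB2 and GRB7 were higher by 0.30, 0.24 and 0.21, and NCK1 (-0.39) and SOS1 (-0.29) were lower. In the vitamin D3 comparison 0 genes of these lists passed.

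**Figure D4:**
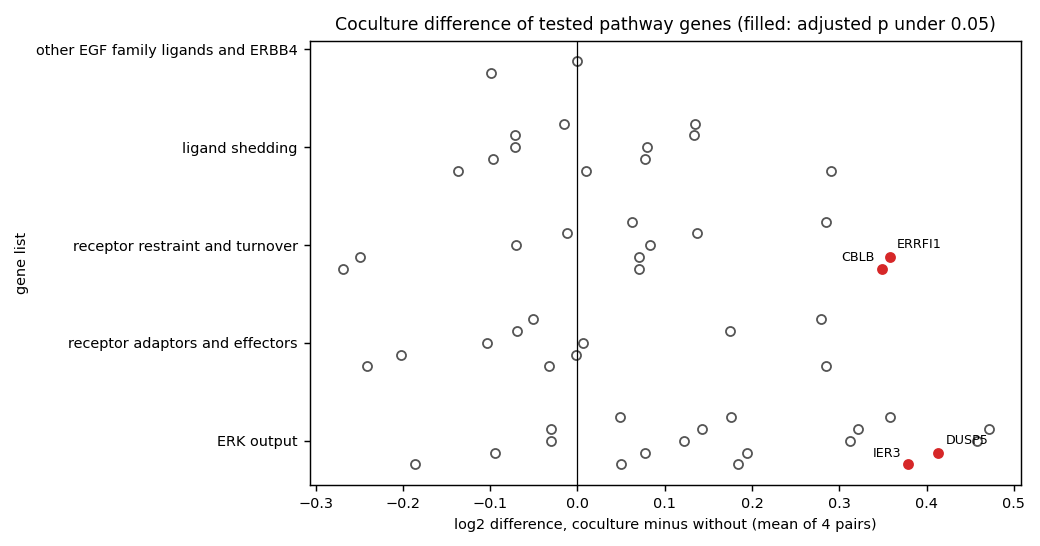
Coculture minus no coculture (x axis, log2 difference, mean of 4 pairs) for the tested genes of each pathway list (y axis), with 1 point per gene, filled where adjusted p was under 0.05. The filled points are ERRFI1 and CBLB among the restraint genes and DUSP5 and IER3 in the ERK output list, and most ERK output points lie above 0.

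As a description, genes were ranked by how their 8 colon values followed those of a member after each line's mean was subtracted. The points share their arrays and the coculture split, and the 2000 genes ranked varied by at least 0.5 log2. TGFA was nearest to PSD3 and DUSP5 (Pearson r = 0.99 each) and USP53 (0.98). HBEGF was nearest to ANKRA2, LYST and MLPH (0.99 each). BTC was nearest to RAB33B, PRSS2 and SNHG33 (0.98 each), and EGFR to SSH1 and PGM2L1 (0.94 each) and SHC2 (0.91). Among the ligands, r was 0.91 between TGFA and HBEGF, 0.94 between HBEGF and EREG, 0.77 between HBEGF and BTC and 0.51 between TGFA and BTC. Between EREG and BTC it was 0.86, and between TGFA and EREG 0.77. The values of EREG rest mostly on the HCT116 arrays, since its Hke3 levels were nearly the same. For the receptors, r with TGFA was 0.40 for EGFR, -0.16 for ERBB2 and -0.09 for ERBB3. With HBEGF the values were 0.54, -0.37 and -0.08 in that order.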

How the data were processed

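Gene expression was measured on 10 one-colour Affymetrix arrays, 8 of colon cancer lines and 2 of THP1. The authors deposited log2 values per probe set made with RMA through the R package affy, per the submitters' processing notes, with no version stated. Arrays were grouped by title. Of 54675 probe sets, 41097 map to 1 symbol, 1801 to several and 11777 to none. A gene is its probe set with the highest mean. Symbols were updated through Entrez ID.

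The 8 colon arrays were fitted in limma 3.58.1 (R 4.3.3) with additive terms for line, coculture and vitamin D3 (4 degrees of freedom left). Interactions were added 1 at a time (3 degrees). THP1 was compared with the lines on the 6 arrays without coculture (2 degrees). The comparisons share arrays. P-values were two-sided and Benjamini-Hochberg adjusted over all genes tested, with a threshold of 0.05. Adjusted p-values of single probe sets come from a separate fit of the 24732 probe sets tested on the colon arrays. Values after ± are SE unless called SD, and p-values measure only the spread between these arrays, which may be technical.

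All members are named, with up to 4 genes per list, direction and comparison that passed, the 3 nearest genes of 4 members, and CYP24A1 and VDR as label checks. VDR was at 7.94 to 8.48 log2 on all arrays. ADAM17, CD14, NRG1, ERBB4 and SRGN were named after their values were seen. The members and lists were chosen with earlier results of these data known. Alternatives were the filter, probe set choice, normalisation, eBayes options, a 1.5-fold minimum, a block of the other factors, all two-way interactions and leaving out each array. Another dropped the vitamin D3 term. Means of probe sets, centring and cyclic loess for THP1 and single probe sets for interactions and turned coculture labels for vitamin D3 were added after seeing the data. The model was tested on simulated data. Figures used matplotlib 3.10.9 in Python 3.11.15.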

Additional observations from a re-analysis of the deposited data

Results flagged for a closer look

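The coculture difference of BTC, the betacellulin gene, was unlike in the 2 colon lines by the test of that difference itself. The interaction was -0.92 log2 (limma, adjusted p = 0.0301), with a mean of 0.71 log2 over the 2 HCT116 pairs and -0.21 over the 2 Hke3 pairs. The second BTC probe set gave -0.63 log2 (adjusted p = 0.133). The call was lost with no filter on dim genes and in most omissions of a single array, and 4.21% of all genes passed this test.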

How the results depend on the processing

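Replicates could not be paired, with 1 array in each condition, and the block named here compares the matched pairs of arrays. The number of the 7 genes past the threshold in coculture was 1. It was 0 without the filter, with a minimum of 1.5-fold (limma's treat) and with a block of the other factors. It was 2 with a filter at the 75th percentile (8.14 log2), with cyclic loess and without the vitamin D3 labels. Leaving out 1 array gave 0 to 1. Between the lines, 6 became 3 with the mean of the probe sets and 1 with a 1.5-fold minimum, and 3 to 5 without 1 array. The interaction of coculture and line went from 1 to 0 with no filter and to 2 with all two-way interactions, and was 0 to 1 without 1 array.

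Line differences that reversed were TGFA at -0.22 log2 and EREG at -0.12 with the mean of probe sets, and single probe sets of TGFA (-0.24 and -0.70), EREG (-0.46), EGFR (-0.19 and -0.21), ERBB2 (-0.58) and ERBB3 (0.093). The cause was not tested. Single-gene values of the fitted comparisons were also sorted, the THP1 differences fixed by the filter included. Of these, 663 stayed the same, 53 lost the call, 8 gained it, 34 moved and 9 reversed. Same means the same side of the threshold and the same sign, or an uncalled value whose sign changed within its SE. Moved means an uncalled value whose sign changed by more than its SE.

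Over all genes, coculture called 1035 (498 higher, 537 lower). It called 656 with no filter, 259 with the block, 0 with a 1.5-fold minimum and 39 to 459 without 1 array. Cyclic loess gave 659 higher and 425 lower. The interaction called 557, 277 with no filter, 1169 with trend and robust fitting and 101 to 282 without 1 array. The line called 5364, and 208 with a 1.5-fold minimum. Levels below 6.18 log2 are close to background and limit the size of the THP1 differences.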
